A study of Mus musculus with 22 samples.

Results

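The suppressors of cytokine signalling (SOCS) family was examined in neurons and glia of the hippocampus opposite to a kainate injection. The members were taken by name as the 8 genes of the family, Socs1, Socs2, Socs3, Socs4, Socs5, Socs6, Socs7 and Cish, out of 53379 genes in the count table. All 8 members were among the 40714 genes that passed the filter on low counts and were tested. Socs3 mRNA was 22.2-fold higher with kainate in neurons and 45.2-fold higher in glia. No other member passed the threshold, an FDR below 0.25, in either cell type in the model without the replicate number as a block. In glia Socs1 and Socs5 each passed it in 1 of 21 other settings, Cish in 2 and Socs2 in 3.

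Adult male C57/BL6N mice, 8 weeks old on arrival and acclimatized for 4 weeks, were injected above the right hippocampus with 70 nl of 20 mM kainate, an agonist of glutamate receptors that elicits status epilepticus, or with 0.9% NaCl as sham. At 24 h after status epilepticus the hippocampi were frozen, and those of the left, non-injected side are the subject here. The protocol text of the labels names right hippocampi, whereas the series' design and the study's methods name the left. Both treatments shared the same anesthesia, its reversal and buprenorphine, and only kainate mice that showed convulsive seizures were kept. Hippocampi of 8 mice per treatment were pooled, 4 or 2 mice to a pool, into 3 samples. Nuclei of each pool were sorted by NeuN, a nuclear protein of most neurons, into a NeuN+ fraction, called neurons, and a NeuN- fraction, called glia, and mRNA was sequenced. Sham glia had 2 libraries, because preparation failed for 1 sample, and the other groups had 3.

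Cytokines such as interleukin-6, leukemia inhibitory factor and the interferons bind receptors that activate JAK kinases, which phosphorylate STAT transcription factors. SOCS genes are among the genes that STATs switch on, and their proteins bind the receptor or the kinase through an SH2 domain and recruit an elongin and cullin ubiquitin ligase through the SOCS box, so that the signal is limited by its own product. Socs1 and Socs3 can also block the kinase itself, and in brain Socs3 is known as an inducible brake on signalling through gp130, the shared receptor subunit encoded by Il6st.

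STAT dimers bind palindromes with the letters TTCNNNGAA, a motif that reads the same on both strands. The RefSeq table of promoters (GRCm38.p6, 250 bases before to 50 bases after a start site) held a window for 4 of the 8 members, Socs1, Socs3, Socs4 and Cish. The stretches of the Socs3 and Cish windows that hold the motif are shown, 5′ to 3′ on the strand of the gene, since these are feedback genes of the pathway, with the matches in capitals.
Socs3: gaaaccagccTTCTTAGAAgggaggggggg
Cish: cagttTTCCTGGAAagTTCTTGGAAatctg
The Socs3 stretch is chr11:117969501-117969530 on the minus strand, and its match begins 154 bases before the RefSeq start site. In the GENCODE M21 annotation it lies in an intron of the transcript Socs3-202 and upstream of Socs3-201 and Socs3-203. The Cish stretch is chr9:107296654-107296683 on the plus strand, holds 2 matches that do not overlap, of which the first begins at base 1 of the RefSeq transcript, and lies in an exon of Cish-201. The windows of Socs1 and Socs4 held 0 matches. Of 32851 windows of the same 300 bases, 8.3% held at least 1 match and 0.457% at least 2. A match describes the letters only, and no binding was measured.

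The libraries held 12058875 to 45428465 counts. Neuronal markers summed to 2830 to 6650 CPM (counts scaled to a common library total with TMM factors) in neurons and 465 to 745 in glia, and oligodendrocyte markers to 185 to 439 in neurons and 4630 to 36800 in glia. Each of the 8 marker lists thus had signal in both fractions. Since whole pools of nuclei were sequenced, fewer cells that express a gene and less RNA per cell cannot be told apart. The libraries with replicate number 1 stood apart from the others in their groups. Socs1, Socs4, Socs5 and Socs7 were highest in replicate 1 in 4 of 4 groups, as were 19.6% of all tested genes. Sham glia replicate 1 and kainate glia replicate 2 were made from 0.05 ng of RNA with 15 cycles of PCR, and all others from 1 ng amplified over 10 cycles. The libraries were sequenced on either of a pair of instruments, and which library went to which is not given in the sources used here.

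Socs3 (ENSMUSG00000053113, chromosome 11, 117966079 to 117970047, minus strand) encodes the inhibitor of gp130 signalling. In neurons its CPM was 3.22, 3.13 and 3.06 in sham replicates 1, 2 and 3, and 39.8, 78.4 and 91.1 in the kainate replicates. No kainate library overlapped with sham, and the kainate libraries differed among themselves by more than the sham libraries did. The log2 fold change was 4.47 (SE 0.43, 95% interval 3.55 to 5.40), and edgeR's quasi-likelihood test gave an adjusted p (FDR) of 0.00143.

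In glia the Socs3 CPM was 10.7 and 10.3 in sham replicates 1 and 3, and 650.0, 403 and 375 in kainate replicates 1, 2 and 3. The sham libraries again lay close together and far below the kainate libraries, which held 10365 to 13344 reads of the gene against 168 and 208 in sham. This gave a log2 fold change of 5.50 (SE 0.54, 95% interval 4.34 to 6.66) and an FDR of 0.00358. Between libraries with the same number, kainate exceeded sham 12.3, 25.1 and 29.7 times in neurons and 60.5 and 36.4 times in glia. The call in neurons held in 21 of 21 other settings and that in glia in 20 of 21. A separate fit of the glia libraries alone gave Socs3 an FDR of 0.707 at a log2 fold change of 5.53, and called 0 genes in glia at FDR below 0.25, and without both libraries of low RNA input its FDR was 0.243. In glia the summed markers of astrocytes (1050 to 4000 CPM in sham, 625 to 3130 in kainate) and of microglia (656 to 3560 and 651 to 1880) overlapped between treatments. With the number as a block, however, 3 of 6 astrocyte, 2 of 6 microglia, 3 of 5 oligodendrocyte and 3 of 3 oligodendrocyte precursor markers were called lower in glia, where that fit called 2.86% of all tested genes lower, among them P2ry12 (log2 fold change -2.10, FDR 1.38e-08) and Gja1 (-1.66, FDR 2.75e-06), and 1 astrocyte marker, Gfap, higher. Their part in the glial Socs3 level was not tested.

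**Figure D1:**
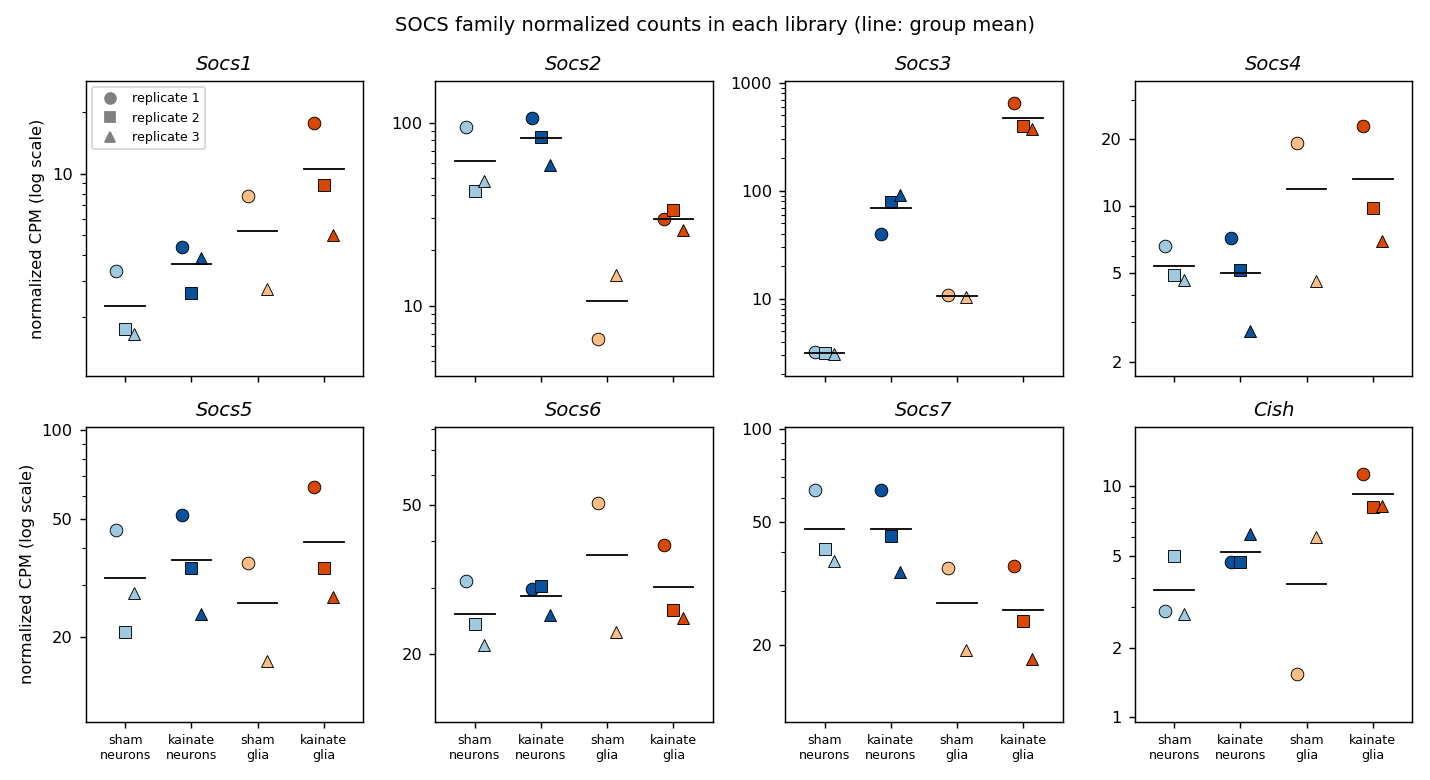
Normalized CPM of each SOCS family member (log axis, with its own range in each panel) in the 11 libraries, grouped as sham neurons, kainate neurons, sham glia and kainate glia. Each symbol is a library, its shape gives the replicate number and the line is the group mean. Socs3 sits between 3.06 and 10.7 in all sham libraries and between 39.8 and 650.0 in all kainate libraries.

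Some non-neuronal markers in the neuron fraction also differed between treatments. Summed CPM of 6 astrocyte markers was 170 to 234 in sham neurons and 252 to 410 in kainate neurons, without overlap, and that of 6 microglia markers was 44.6 to 67.5 in sham and 67.4 to 73.2 in kainate. None of these 12 markers was called without the block. The astrocyte markers did not move as 1 list. Mean CPM in sham and kainate neurons was 21.2 and 79.2 for Gfap, 125 and 201 for Slc1a2, 39.9 and 26.6 for Slc1a3, and 14.5 and 8.84 for Gja1. In the fit with the replicate block Gfap, Aqp4, Slc1a2 and Aldh1l1 were called higher in neurons, and Slc1a3 (FDR 0.0503) and Gja1 (FDR 0.107) lower, while of the microglia markers Csf1r was called higher (FDR 3.36e-05) and P2ry12 lower (FDR 0.216). No astrocyte or microglia marker was at 0 in any neuron library, and of the blood leukocyte markers S100a8 was at 0 in all kainate neuron libraries.

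Within a pool, Socs3 CPM in the neuron fraction was 30% and 29.7% of that in the glia fraction in sham replicates 1 and 3, and 6.12%, 19.5% and 24.3% in kainate replicates 1, 2 and 3. The same percentage for the summed astrocyte markers was 5.67% and 22.4% in sham and 8.07%, 21.7% and 65.6% in kainate. For the microglia markers it was 1.9% and 7.91% in sham and 3.75%, 6.23% and 11.2% in kainate. In each kainate pool the Socs3 percentage thus lay above those of the microglia and oligodendrocyte markers. It lay below those of the astrocyte, endothelial and pericyte markers there. The oligodendrocyte precursor (3.21%, 10.4% and 29.9%) and blood leukocyte markers (10.2%, 11.3% and 21.5%) lay on both sides of it. In both sham pools Socs3 lay above the astrocyte markers. Among the kainate pools, replicate 1 had the lowest percentage, and replicate 3 the highest, for Socs3 and for all 7 non-neuronal marker lists. Their part in the neuronal Socs3 level was not tested.

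**Figure D2:**
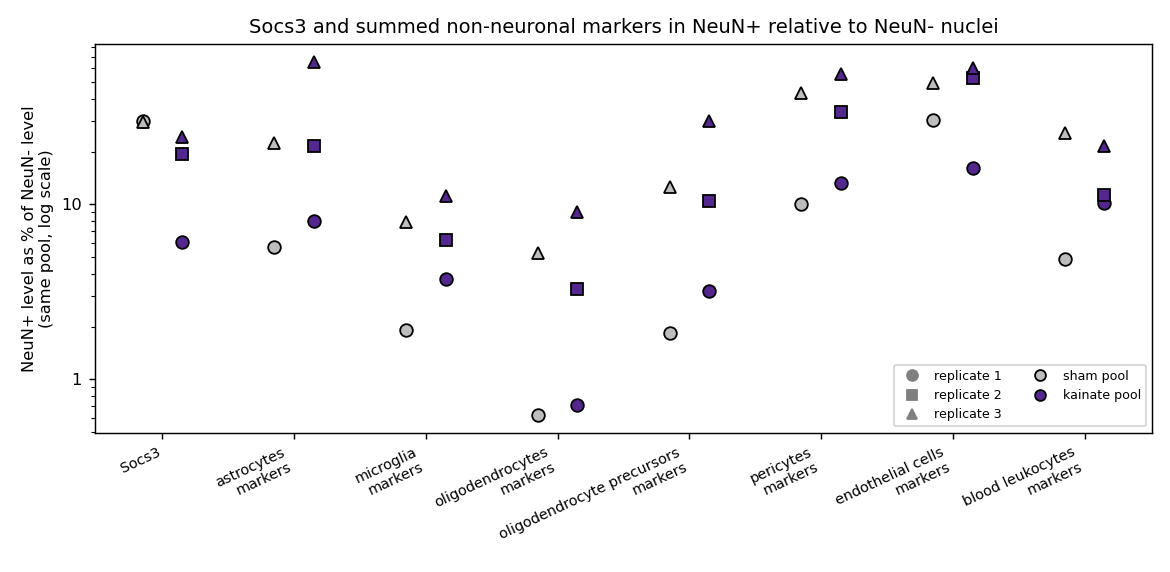
Level in the neuron fraction as a percentage of the level in the glia fraction of the same pool (log axis), for Socs3 and for the summed CPM of 7 lists of non-neuronal markers. Grey symbols are the 2 sham pools and purple symbols the 3 kainate pools, with the replicate number as shape. Socs3 sits at 29.7% to 30% in sham pools and at 6.12% to 24.3% in kainate pools, and the marker lists also spread between pools.

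Socs1 (ENSMUSG00000038037, chromosome 16, 10782240 to 10785536, minus strand), the other member that blocks JAK kinases and the main inhibitor of interferon signalling, was low throughout. Its CPM was 3.36, 1.75 and 1.64 in sham neurons and 4.41, 2.62 and 3.87 in kainate neurons. In glia it was 7.80 and 2.73 in sham replicates 1 and 3, and 17.7, 8.79 and 5.0 in kainate replicates 1, 2 and 3. The groups overlapped in both cell types, while each same-numbered kainate library was above its sham library in 3 of 3 pairs of neurons and 2 of 2 pairs of glia. Kainate against sham gave 0.70 on the log2 scale in neurons (95% interval -0.51 to 1.91) and 0.99 in glia (-0.37 to 2.36), each with an FDR of 1. With the replicate number as a block it was 1.03 in glia (SE 0.38), with an FDR of 0.178. Without the block the glial value was 0.27 without kainate glia replicate 1, 0.42 when sham replicate 3 was left out and 1.97 when sham replicate 1 was.

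Cish (ENSMUSG00000032578, chromosome 9, 107296026 to 107302784, plus strand), the founding member and a target of STAT5, was also low, and its exons overlap those of Gm17040 and Gm17041, so that its counts are uncertain where strand was not used. In neurons its CPM was 2.89, 5.0 and 2.80 in sham and 4.70, 4.69 and 6.21 in kainate. In glia it was 1.53 and 6.0 in sham replicates 1 and 3, and 11.3, 8.08 and 8.21 in kainate. All kainate glia libraries were above both sham glia libraries, whereas the neuron groups overlapped. On the log2 scale the difference was 0.54 in neurons (95% interval -0.52 to 1.6) and 1.28 in glia (0.05 to 2.51), each with an FDR of 1. With the replicate block the value in glia was 1.54 (SE 0.44), with an FDR of 0.039. The sham glia libraries differed from each other, and the value was 0.64 (FDR 0.98) without replicate 1 and 2.57 (FDR 0.22) without replicate 3.

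Socs2 (ENSMUSG00000020027, chromosome 10, 95385362 to 95417180, minus strand) limits growth hormone signalling. In glia its CPM was 6.58 and 14.6 in sham replicates 1 and 3, and 29.8, 33.4 and 26.0 in kainate replicates 1, 2 and 3. In neurons it was 94.0, 42.3 and 48.1 in sham and 105, 83.0 and 58.5 in kainate. The glia groups did not overlap and the neuron groups did. The log2 fold change in glia was 1.48 (SE 0.48, 95% interval 0.45 to 2.52), with an FDR of 1 at an unadjusted p of 0.00813. With the replicate block it was 1.47 (SE 0.27), with an FDR of 0.000281, and DESeq2's Wald test gave an FDR of 0.206. Without sham glia replicate 3 it was 2.17 (FDR 0.23), without sham glia replicate 1 it was 1.05 (FDR 0.98), and without both libraries of low RNA input 0.95 (FDR 1). The value in neurons was 0.42 (95% interval -0.45 to 1.29).

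**Figure D3:**
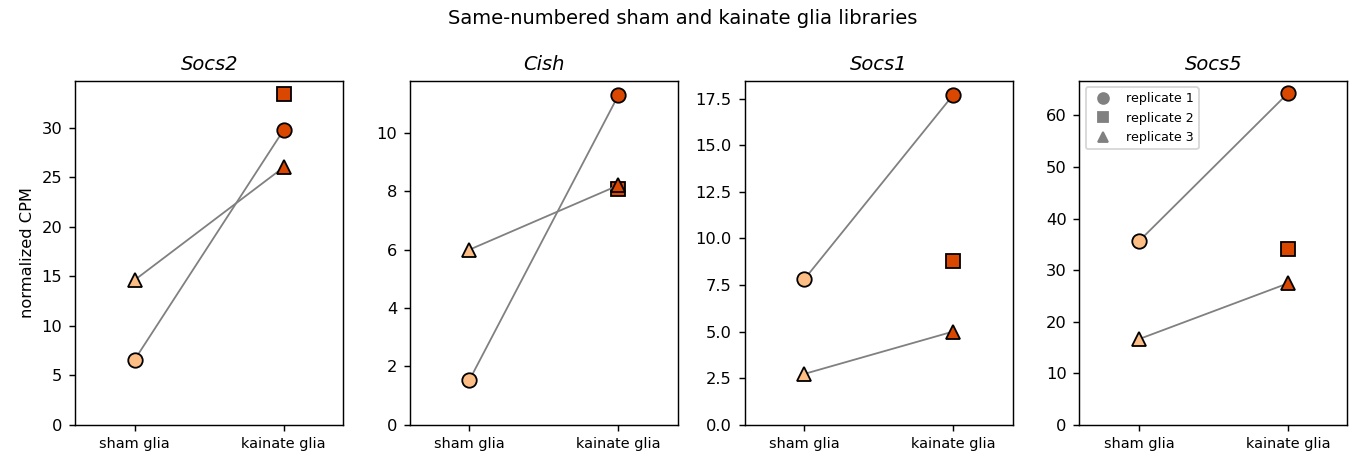
Normalized CPM (axis from 0) of Socs2, Cish, Socs1 and Socs5 in the 2 sham and 3 kainate glia libraries. Lines join libraries with the same replicate number, and kainate replicate 2 has no sham partner. Every line rises, with Cish at 7.36 times in replicate 1 and 1.37 times in replicate 3, and Socs2 at 4.53 and 1.78 times. In replicate 1 the sham library was made from 0.05 ng of RNA and the kainate library from 1 ng. In replicate 3 both were made from 1 ng.

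Socs5 (ENSMUSG00000037104, chromosome 17, 87107679 to 87137839, plus strand) and Socs4 (ENSMUSG00000048379, chromosome 14, 47276931 to 47296102, plus strand) are known for promoting the turnover of the epidermal growth factor receptor. Socs5 CPM in glia was 35.6 and 16.6 in sham replicates 1 and 3, and 64.3, 34.1 and 27.4 in kainate replicates 1, 2 and 3. The groups overlapped, and kainate was above sham 1.81 and 1.65 times in the same-numbered pairs. This gave a log2 fold change of 0.68 (95% interval -0.43 to 1.80, FDR 1), and with the replicate block it was 0.79 (SE 0.25), with an FDR of 0.0917. Without the block it was 0.12 without kainate glia replicate 1, 0.23 when sham replicate 3 was left out and 1.36 when sham replicate 1 was. In neurons Socs5 CPM was 46.2, 20.9 and 28.2 in sham and 51.6, 34.2 and 24.0 in kainate, with a log2 fold change of 0.21 (95% interval -0.77 to 1.18).

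Socs4 CPM was 6.65, 4.88 and 4.64 in sham neurons and 7.18, 5.15 and 2.75 in kainate neurons. In glia it was 19.4 and 4.61 in sham replicates 1 and 3, and 22.9, 9.84 and 6.97 in kainate. Replicate 1 was the highest in each group, and no difference between treatments was larger than the spread within them. Kainate against sham gave a log2 fold change of -0.10 in neurons (95% interval -1.34 to 1.14) and 0.14 in glia (-1.23 to 1.52). The direction turned in neurons without kainate replicate 3 (0.19) or sham replicate 1 (0.074), and in glia without kainate replicate 1 (-0.65) or sham replicate 3 (-0.56), and without sham replicate 1 of glia it was 1.54.

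Socs6 and Socs7 are known as inhibitors in insulin and receptor kinase signalling. Socs7 (ENSMUSG00000038485, chromosome 11, 97362551 to 97398542, plus strand) had a CPM of 63.7, 40.9 and 37.3 in sham neurons and of 63.5, 45.0 and 34.4 in kainate neurons. In glia it was 35.4 and 19.2 in sham replicates 1 and 3, and 36.0, 24.0 and 18.0 in kainate. Same-numbered libraries lay close to each other, with kainate over sham ratios of 0.92 to 1.10 over all 5 pairs. The log2 fold change was 0.0089 in neurons (95% interval -0.83 to 0.85) and -0.072 in glia (-1.01 to 0.87), and changes within these intervals could not be told from 0.

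Socs6 (ENSMUSG00000056153, chromosome 18) had a CPM of 31.3, 24.1 and 21.1 in sham neurons and of 29.9, 30.5 and 25.4 in kainate neurons. In glia it was 50.6 and 23.0 in sham and 39.1, 26.3 and 24.98 in kainate. The groups overlapped in both cell types. Its log2 fold change was 0.17 in neurons (95% interval -0.60 to 0.93) and -0.29 in glia (-1.14 to 0.57), and the glial value was 0.42 without sham glia replicate 1.

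Over the family, 1 of 8 members, Socs3, was called higher with kainate in neurons, where 0.157% of all tested genes were called higher, and 1 of 8, again Socs3, in glia, where 0.0933% were. No member was called lower, as against 0.00737% of all tested genes in each cell type. The log2 fold change was above 0 in 7 of 8 members in neurons (median 0.31, and 0.21 without Socs3) and in 6 of 8 in glia (median 0.84, and 0.68 without Socs3), beside medians of -0.015 and 0.023 over all tested genes. All kainate libraries were above all sham libraries for 1 member in neurons (4.26% of all tested genes) and for 3 in glia, Socs2, Socs3 and Cish (4.7%). With the replicate number as a block, 1 of 8 members was called higher in neurons, against 3.19% of all tested genes, and 5 of 8 in glia, against 2.93%, and none was called lower, against 1.9% and 2.86%. That block rests on 3 residual and 48 prior degrees of freedom, so its small FDRs lean on the spread shared over genes, and, for glia, on the pairs numbered 1 and 3. In glia pair 1 only the sham library was of low RNA input, so input and treatment cannot be told apart there.

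**Figure D4:**
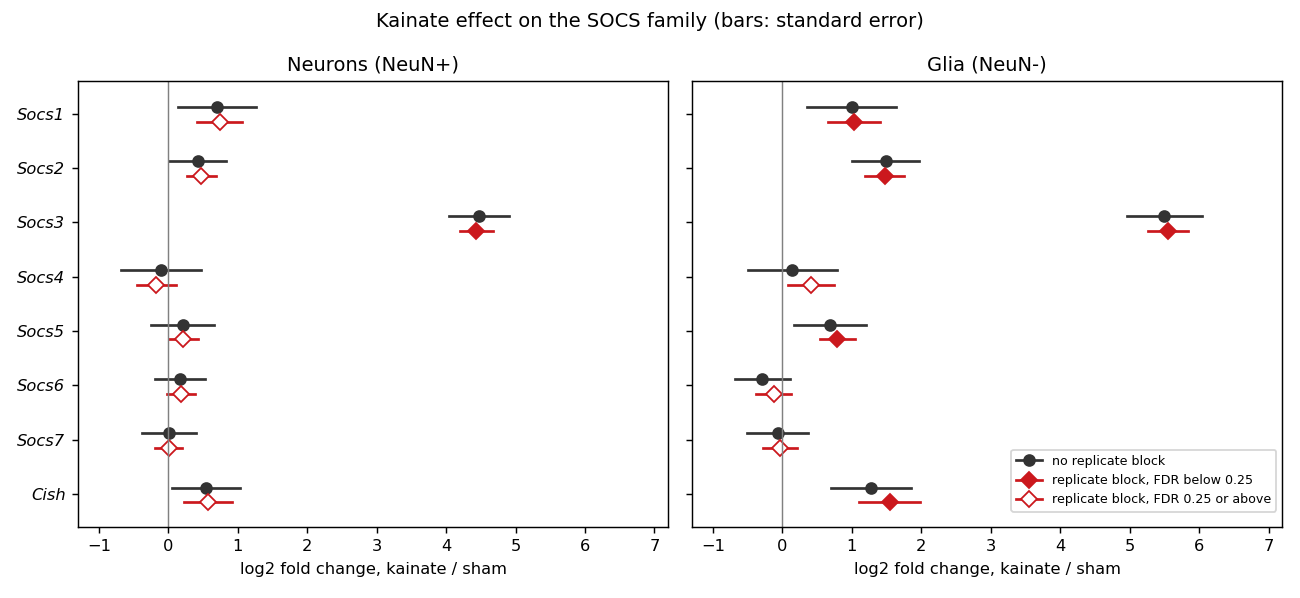
Log2 fold change of kainate against sham for each SOCS family member in neurons (left) and glia (right). Black circles are the values without a block and red diamonds those with the replicate number as a block, filled where FDR was below 0.25, and bars are 1 standard error. Socs3 lies at 4.47 and 5.50, and the other members lie between -0.29 and 1.48 without the block.

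The kainate effect on Socs3 was smaller in neurons than in glia by 1.02 log2 units (95% interval -2.25 to 0.20), which was not called (FDR 1). None of the 8 members was called for a difference of the kainate effect between cell types, where 0.00246% of all tested genes were. With the replicate block within each cell type the Socs3 difference was -1.11 (SE 0.33), with an FDR of 0.112, and 0.702% of all tested genes were called in that direction. With the pool as the block none of the 8 members was called, beside 0.0221% of all tested genes. For Socs2 the difference was -1.06 (95% interval -2.39 to 0.26, FDR 1).

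All 8 members were detected in both fractions, at levels that differed for some. Averaged over both treatments Socs2 was 4.0-fold higher in neurons (log2 fold change 2.00, SE 0.33, FDR 0.000513) and Socs7 1.78-fold higher (0.83, SE 0.30, FDR 0.0759). Socs3 was 4.78-fold lower in neurons (-2.26, SE 0.29, FDR 8.17e-05), Socs1 2.60-fold lower (-1.38, SE 0.42, FDR 0.0339) and Socs4 2.42-fold lower (-1.27, SE 0.43, FDR 0.0573). These 5 of 8 members compare with 37.2% of all tested genes, of which 16.8% were higher and 20.4% lower in neurons, and the same 5 were called with the pool as the block, where 59.7% of all tested genes were called, a share close to that of the family in that fit.

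The ratio of neurons to glia within a pool was nearly constant for Socs7, at 1.76 to 1.94 in 5 of 5 pools. For Socs2 it was 14.3 and 3.29 in sham replicates 1 and 3, and 3.53, 2.48 and 2.25 in kainate replicates 1, 2 and 3, so that neurons were higher in every pool by unequal amounts. Socs4 was lower in neurons in 4 of 5 pools, with a ratio of 1.007 in sham replicate 3, and without sham glia replicate 1 its log2 fold change was -0.56 (FDR 0.299). Its call was also lost without both libraries of low RNA input (FDR 0.296) and at a threshold of 0.05, as was that of Socs7 at 0.05. Socs5 (FDR 0.937), Socs6 (FDR 0.458) and Cish (FDR 0.423) were not called, although Socs6 was in 4 of 20 other settings (FDR down to 0.131) and Cish in 2 of 20 (down to 0.11).

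Levels of different members were compared as CPM per kilobase of exon. In sham neurons Socs7 (6.51 ± 1.97, SD, n = 3), Socs2 (6.45 ± 2.97) and Socs5 (4.95 ± 2.03) led with overlapping libraries. Socs6 (2.25 ± 0.46) followed them, then Socs3 (1.09 ± 0.03), and Socs4, Socs1 and Cish were lowest with means of 0.56 to 0.78. This order is that of the means, and in sham replicate 1 Socs1 (1.154) lay above Socs3 (1.115). With kainate Socs3 moved from the fifth to the first place (24.1 ± 9.25), above all libraries of Socs2 (8.63 ± 2.45), which led Socs7 (6.55 ± 2.03) and Socs5 (5.71 ± 2.18) with overlapping libraries.

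In sham glia Socs5 (4.07 ± 2.09, SD, n = 2), Socs7 (3.76 ± 1.57), Socs3 (3.64 ± 0.10) and Socs6 (3.24 ± 1.72) could not be ordered beyond their spread, and Cish had the lowest mean (0.59 ± 0.49), with libraries that overlapped those of Socs2 (1.11 ± 0.60). In kainate glia Socs3 reached 165 ± 52.4 CPM per kilobase (n = 3), and no other member had a mean above 6.54. Neighbours in that order other than Socs3 and Socs5 overlapped.

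As a share of the summed CPM per kilobase of the 8 members, Socs3 made up 3.45%, 5.82% and 5.52% in sham neurons and 28.95%, 51.8% and 61.7% in kainate neurons. In glia it was 14.8% and 23.9% in sham and 87.3%, 87.4% and 89.2% in kainate. The transcripts of the family in kainate glia were thus mostly those of Socs3 in every library. The sum of the other 7 members was 17.5 to 31.2 CPM per kilobase in sham neurons, 19.5 to 33.8 in kainate neurons, 11.3 to 21.3 in sham glia and 15.7 to 32.7 in kainate glia, with overlap between treatments in both cell types. In same-numbered pairs this sum was higher with kainate in 5 of 5, from 31.2 to 33.8, 17.5 to 25.3 and 18.1 to 19.5 in neurons and from 21.3 to 32.7 and 11.3 to 15.7 in glia, and no test was made of it.

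**Figure D5:**
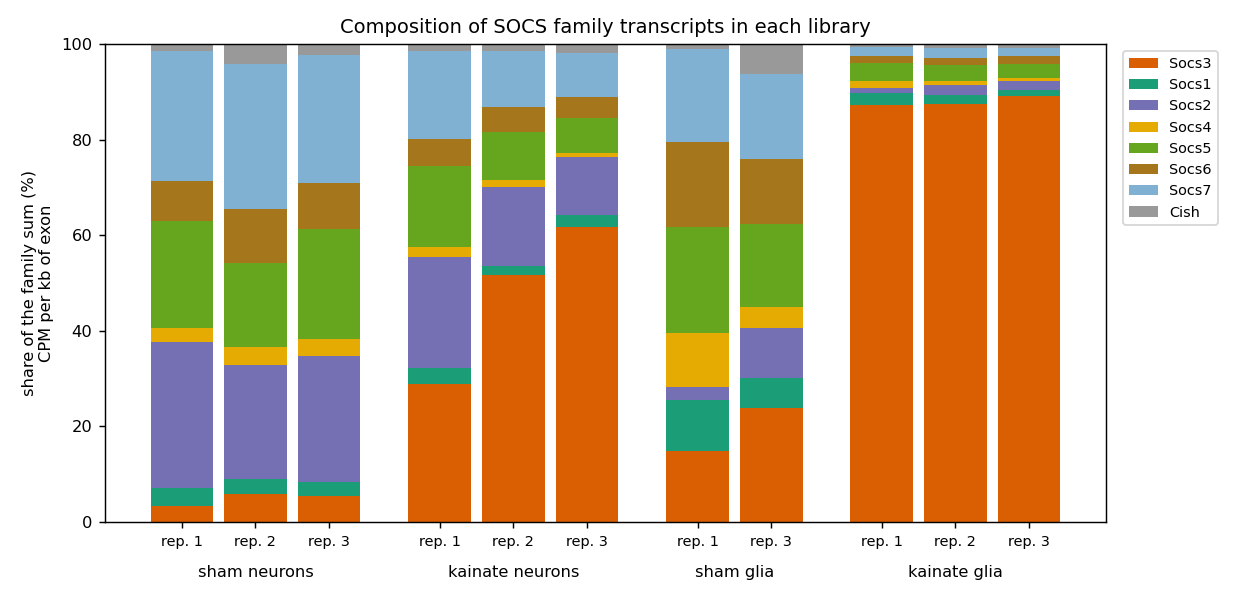
Share of each member in the summed CPM per kilobase of exon of the SOCS family (%, stacked to 100) in each of the 11 libraries. Socs3, at the bottom of each bar, takes 3.45% to 5.82% in sham neurons, 28.95% to 61.7% in kainate neurons, 14.8% to 23.9% in sham glia and 87.3% to 89.2% in kainate glia.

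Upstream of the family, 1 of 19 tested cytokine ligands was called higher in neurons, Clcf1, which encodes a ligand that signals through gp130 (log2 fold change 2.61, SE 0.48, FDR 0.137), and 0 of 19 were called in glia, where Clcf1 was 2.24 (FDR 0.606), beside 0.157% and 0.0933% of all tested genes called higher. With the replicate block 2 ligands were higher and 1 lower in neurons, and 5 were higher and 1 lower in glia, where 3.19% of all tested genes were higher and 1.9% lower in neurons and 2.93% higher and 2.86% lower in glia. Lif, another gp130 ligand, was among those higher with the block, at 1.92 in neurons (FDR 3.24e-05) and 3.07 in glia (FDR 2.94e-09). Without the block Lif was 2.15 in neurons and 3.49 in glia and was not called in either. Its mean CPM in kainate neurons was 8.53, with an SD of 10.2. Il6 itself was -0.44 in neurons and -0.13 in glia, each with an FDR of 1. Of 23 receptors none was called in either cell type, and an unadjusted p below 0.05 was reached upward by 4 in neurons and 2 in glia, beside 1.46% and 1.35% of all tested genes. With the block 5 receptors were higher and 1 lower in neurons, and 4 were higher and 2 lower in glia, among them the receptor subunit Osmr (1.13, FDR 0.00791 in neurons and 1.92, FDR 7.45e-05 in glia).

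Of 11 JAK kinases and STAT factors none was called either, with 2 in neurons and 2 in glia higher at an unadjusted p below 0.05, which 1.46% and 1.35% of all tested genes also reached. With the replicate block 2 were higher and 1 lower in neurons and 3 were higher in glia, beside 3.19% higher and 1.9% lower in neurons and 2.93% higher in glia over all tested genes. Stat3, the factor activated through gp130, was 1.39 in neurons (SE 0.50) and 1.70 in glia (SE 0.59), with block FDRs of 1.08e-07 and 7.58e-07.

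None of the partners that the SOCS box recruits was called. Of 8 elongin, cullin and related genes 0 were called in neurons and 0 in glia, with 0 at an unadjusted p below 0.05 and 0 with the replicate block, and medians of 0.16 and -0.074. Of 12 other inhibitors of the pathway 0 were called, with 0 at an unadjusted p below 0.05, and with the block 1 was higher in neurons (Pias2, FDR 0.207), and in glia 1 was higher (Ptpn2, FDR 0.0261) and 1 lower (Pias3, FDR 0.2). Of 6 other SOCS box proteins 0 were called, with 0 at an unadjusted p below 0.05, and the block called 2 higher in neurons and 2 higher and 1 lower in glia. Of 12 signalling proteins described as SOCS targets 0 were called, again with 0 at an unadjusted p below 0.05, and with the block 1 was lower in neurons (Irs1, FDR 0.0504) and 2 were higher in glia (Kit, FDR 0.00286, and Rela, FDR 0.0503). Over all tested genes, 0.157% in neurons and 0.0933% in glia were called higher, and 1.46% and 1.35% were higher at an unadjusted p below 0.05, so lists of this size could hold 0 by background alone. The block called 3.19% of all tested genes higher and 1.9% lower in neurons, and 2.93% and 2.86% in glia.

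Among 20 genes known to be induced by STATs, some were called in both cell types, all of them higher with kainate. In neurons 3 of 20 were called, Sbno2, a target of interleukin-10 signalling (log2 fold change 2.03, FDR 0.121), the immediate early gene Fos (3.09, FDR 0.15) and the protease inhibitor Timp1 (3.31, FDR 0.169). In glia 6 of 20 were called, Junb (3.78, FDR 0.105), Sbno2 (2.71, FDR 0.0763), Fos (5.67, FDR 0.0763), Myc (2.92, FDR 0.0763), Cebpd (2.82, FDR 0.142) and Timp1 (5.64, FDR 0.0763). These shares stand beside 0.157% of all tested genes in neurons and 0.0933% in glia. The list was chosen with earlier results of these data known, so the shares are no independent test. The median of the list was 1.13 in neurons and 1.46 in glia, and with the replicate block 11 and 15 were called higher and 0 lower, beside 3.19% and 2.93% of all tested genes called higher. Fos, Junb and Myc are also known as immediate early genes, which neuronal activity and growth factors switch on by other routes.

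Over the 11 libraries, the tested genes whose log2(CPM + 1) was most like that of Socs3 were Myc (Pearson r 0.966), Atf3 (0.958), Ptx3 (0.958), Map3k8 (0.951) and Tubb6 (0.948). Within the family Socs3 was most like Cish (0.781) and Socs1 (0.719), and Socs1 was most like Socs4 (0.841). These correlations describe 4 groups of libraries that share treatment, cell type and the offset of replicate 1.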

How the data were processed

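mRNA-seq libraries of sorted nuclei were analysed. Per the methods, the authors used Trim Galore 0.4.3 for trimming, Rsubread for alignment and featureCounts for counting unique reads, with the GENCODE M16 annotation of mm10. The strand setting of the counting is not given in the sources used here. The deposited values are these raw counts. The bisulfite samples were not analysed here.

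Of the table's genes, 105 had no symbol and were dropped, and filterByExpr with a minimum count of 10 and a total of at least 15 kept 40714. TMM scaling and edgeR's quasi-likelihood test (legacy=TRUE) were used in 1 model of 4 group means (7 residual and 6.76 prior degrees of freedom, common biological coefficient of variation 0.6). P-values were adjusted by Benjamini-Hochberg over all tested genes, and genes were called at FDR below 0.25, the threshold of the study. The study's methods describe separate analyses of glia and neurons, which was read as separate comparisons, so that 2 sham glia libraries share the spread of all groups. A separate fit per cell type was an alternative, and it ended the glial calls. The study itself reported genes called in glia, Socs3 among them, after a filter that kept fewer genes. That result was not reproduced by the separate fit made here. Neurons against glia was averaged over both treatments. CPM use TMM factors. Exon lengths and coordinates are those of GENCODE M21 (GRCm38). Promoter sequences are RefSeq's. The software was edgeR 4.0.16, DESeq2 1.42.0 and limma 3.58.1, run in R 4.3.3.

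The members and lists were chosen with earlier results of these data known. All members were named with their values, other list genes where called, and uncalled ones only for a level or a defining role. Those named for a call with the block were chosen after their values were seen. The genes most like a member are the 5 (Socs3) or 3 (the others) with the highest correlation.

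Replicates are separate pools of mice. Deviations from the group means correlated between same-numbered kainate and sham libraries (0.643, 0.161 and 0.491 in neurons, 0.76 and 0.787 in glia), so the number was taken as pairing. For number 2 this is weak, since sham neurons 2 correlated more with kainate neurons 3 (0.418), and with 2 sham glia libraries the deviations mirror each other. A block within each cell type, and a block by pool (same treatment and number), were fitted as alternatives, beside DESeq2's size factors and Wald test, other filters, the newer quasi-likelihood method, FDR below 0.05, and leaving out each library or both of low RNA input. Genes with an Entrez Gene ID only (21369) were added after seeing the data. Scripts were tested on simulated data.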

Additional observations from a re-analysis of the deposited data

How the results depend on the processing

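Of 664 values of the 8 members under other settings, 597 kept their direction and side of the threshold, 14 newly passed it, 5 no longer did and 48 changed sign, 0 of them of a called value. Socs3 kept its direction under every setting run, with a log2 fold change of 4.24 to 4.75 in neurons and 5.12 to 5.66 in glia. Counts of a member went down to 24 reads in a library (Cish, sham glia replicate 1), and sham glia had 2 libraries. Leaving out 1 of these leaves a lone library that is taken to vary as the remaining groups do.

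The genes called (67 in neurons, 41 in glia, 1 for the difference and 15159 for neurons against glia) depended on the setting, and the cause was not tested. DESeq2's Wald test called 360, 254 and 31 in the first 3 comparisons, a CPM of at least 1 in 3 libraries 137 in neurons and 67 in glia, a separate fit per cell type 390 and 0, the newer quasi-likelihood method 136 and 73, and FDR below 0.05 8, 1, 0 and 6983. Genes with an Entrez Gene ID gave 212, 89 and 9. Without both libraries of low RNA input 1 gene was called in glia and 0 for the difference. Leaving out 1 library gave 5 to 176 genes in neurons, 1 to 2812 in glia, 0 to 11 for the difference and 11200 to 26560 for neurons against glia, and in glia the lowest count came without sham replicate 1 and the highest without sham replicate 3.

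With a replicate block inside each cell type 2072 genes were called in neurons, 2357 in glia and 788 for the difference, and with the pool as the block 9 for the difference and 24313 for neurons against glia. Of the members, the block changed the calls of Socs1, Socs2, Socs5 and Cish in glia and of Socs3 for the difference, and no other call.

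Signs changed as follows. In neurons the log2 fold change of Socs7 was -0.045 with no filter on low counts, -0.010 with the CPM filter and -0.013 with Entrez genes. Without both libraries of low RNA input Socs6 and Socs7 were 0.50 and 0.51 in glia, -0.34 and -0.50 for the difference, and Socs6 was 0.022 for neurons against glia. The difference of Socs7 was -0.017 with the pool as the block. For neurons against glia Socs5 was -0.021 with DESeq2's size factors and Wald test, -0.0022 with no filter, -0.051 with the CPM filter and -0.048 with Entrez genes. Leaving out 1 library in turn gave, in neurons, -0.44 to 0.19 for Socs4, -0.12 to 0.58 for Socs5 and -0.25 to 0.28 for Socs7. In glia it gave -0.65 to 1.54 for Socs4, -0.76 to 0.42 for Socs6 and -0.49 to 0.46 for Socs7. For the difference it gave -1.27 to 0.40 for Socs1, -1.65 to 0.49 for Socs4, -1.16 to 0.040 for Socs5, -0.25 to 0.92 for Socs6 and -0.45 to 0.46 for Socs7. For neurons against glia it gave -0.26 to 0.39 for Socs5, -0.54 to 0.065 for Socs6 and -0.76 to 0.20 for Cish.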

Other observations

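The genes most like the other members over the 11 libraries, by Pearson r of log2(CPM + 1), were Hbegf (0.973), Sgpl1 (0.968) and Tmod1 (0.968) for Socs1, and Spag4 (0.974), A330070K13Rik (0.968) and Slx4 (0.962) for Socs2. For Socs7 they were Tarbp2 (0.994), Grina (0.992) and Meis3 (0.992), and for Cish Gldn (0.927), Isg20 (0.925) and Gm4845 (0.917). For Socs4 they were Ddhd1 (0.981), Herc4 (0.977) and Msrb1 (0.976), for Socs5 Rpl36 (0.97), Pole4 (0.969) and Mrpl17 (0.965), and for Socs6 Ptrh2 (0.984), Selenot (0.98) and Hbb-bs (0.971). Some of these genes are near the lower limit of detection, with A330070K13Rik at a mean of at most 1.16 CPM and Gm4845 at most 0.423 CPM in any group.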
